A study of Homo sapiens with 6 samples.

Results

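The regions described here are stretches of H3K27ac-marked chromatin that the peak list of DMSO-treated ME-1 cells held and that had no counterpart in the list of AI-10-49-treated cells. A region was a member if it was at least 500 bp and under 5000 bp wide in the H3K27ac DMSO list and if no region of the H3K27ac AI-10-49 list lay within 1 kb of it. This rule chose 2091 regions, which is 6.02% of the 34763 DMSO regions of that width and a smaller part of the 67087 DMSO regions of any width. Members covered 1622 kb of the 68.7 Mb that the DMSO list covered. Members were thus chosen by their DMSO width and by the absence of a listed AI-10-49 region, so their widths, −log10 q values, fragment numbers and distances to AI-10-49 regions are a description and are given without a test.

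H3K27ac is the acetylation of lysine 27 on histone H3, which acetyltransferases such as p300 and CBP place at active promoters and enhancers. Acetylated enhancers are often narrow and lie far from the gene they act on, while wide acetylated stretches surround strong promoters and enhancer clusters. RUNX1 is a transcription factor that binds enhancers of blood cell genes together with CBFβ. In leukemias with inv(16), the fusion protein CBFβ-SMMHC takes the place of CBFβ and alters what RUNX1 does there, and AI-10-49 was made to separate the fusion protein from RUNX1.

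Both groups of the comparison were cultures of ME-1, a line from a human inv(16) leukemia, and so all cells carried the fusion gene. The AI-10-49 group had received the compound at 1 µM for 6 h, and the DMSO group had received the solvent for 6 h. Each group had 1 library for H3K27ac and 1 for RUNX1, so the groups could not be compared with any spread between cultures, and no p-value was computed. The H3K27ac libraries held 37.0 M reads (M as in Mb) for AI-10-49 and 35.7 M for DMSO, as recovered from the peak lists. They had been scaled to 27.6 M and 34.0 M, which would be the reads of the input each was called against, although the sources used here do not say which input that was. Intervals on shares are exact Clopper-Pearson intervals (95%) over regions of 1 library, and intervals on fragment numbers are exact Poisson intervals, so both leave out the spread between cultures. All positions are hg19 and 1-based.

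Members were mostly narrow and of modest enrichment. Their median width was 678 bp (quartiles 570 and 873), against 1240 bp (776 and 1968) for the 32672 other DMSO regions of the same width range (500 bp to under 5000 bp). The median fold enrichment that the authors' peak caller gave was 5.15 for members and 9.73 for the others. The median number of fragments at the summit was 28 in members, or 0.785 per M reads (0.616 to 1.06), and 64 in the others, or 1.79 per M reads (0.981 to 3.56). Some members were strong all the same. At least 50 summit fragments stood in 214 of the 2091, at least 75 in 26 and at least 100 in 6, while the median of the others was 64. By width, 344 members reached 1000 bp, against 20158 of the 32672 others. Of the members, 74 reached 1500 bp and 17 reached 2000 bp.

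The share of DMSO regions without an AI-10-49 region within 1 kb fell with width. It was 33.0% below 300 bp, 14.9% from 500 to under 700 bp, 9.31% from 700 to under 1000 bp and 3.58% from 1000 to under 1500 bp. From 2000 to under 3000 bp it was 0.314% (16 of 5096), and from 3000 to under 5000 bp 1 of 2865 regions was left. None of the 1084 regions of 5000 bp or more lacked an AI-10-49 region, which allows a share of up to 0.340%. Over all widths the share was 16.5%. Within the width range of the rule it was 16.9% at a −log10 q of 5 to 10, 4.92% at 20 to 40 and 0.0709% (9 of 12687) at 60 or more.

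**Figure D1:**
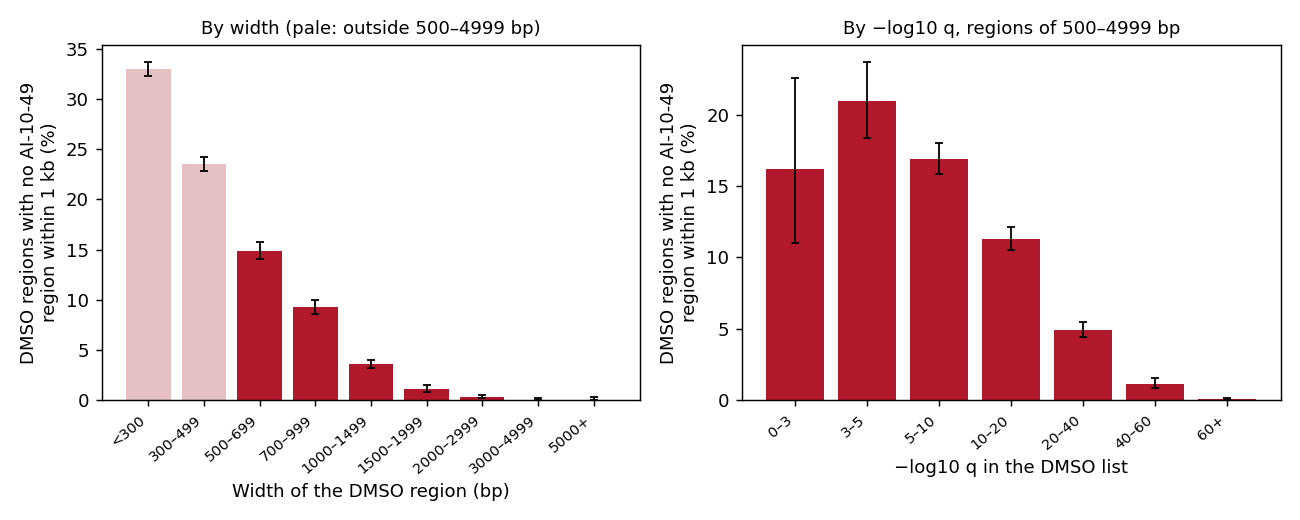
Share of DMSO H3K27ac regions with no AI-10-49 H3K27ac region within 1 kb, in percent, by width of the DMSO region in bp (left, with widths outside the range of the rule in a paler tone) and by −log10 q in the DMSO list (right). Bars are shares and whiskers exact 95% intervals over regions. The share was 14.9% from 500 to under 700 bp and 0.314% from 2000 to under 3000 bp.

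The 1 kb margin and the 500 bp limit divided neighbouring values. Just inside the margin were chr16:1304623-1305222 in 16p13.3 and chr19:40919144-40920204 in 19q13.2, which were 1.003 and 1.005 kb from an AI-10-49 region and held 33 and 46 summit fragments. Just outside were chr17:72543460-72544241 in 17q25.1 and chr19:5994151-5994745 in 19p13.3, at 0.999 and 0.998 kb, with 43 and 32 fragments. Members of exactly 500 bp included chr1:221095084-221095583 in 1q41 and chr15:45479605-45480104 in 15q21.1, with 21 and 28 fragments. Regions of 499 bp, such as chr1:44705425-44705923 in 1p34.1 and chr12:123450460-123450958 in 12q24.31, held 34 and 29 fragments and were not members. In all, 8959 narrower DMSO regions and 0 wider ones met the margin but not the width.

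The depth and the threshold of the AI-10-49 list bound what its silence at a member can mean. If each summit had kept its DMSO fragments per M reads, all 2091 members would have passed the lowest −log10 p of the AI-10-49 list (2.98), as would 100% of the 34763 regions of that width. This was all but fixed beforehand, since the DMSO list ended at nearly the same −log10 p (2.95) and at a similar depth, and it says nothing particular of members. At the smaller of ChIP and input reads, the depth to which the peak caller scales both libraries, 2087 members (99.8%) would have passed. Chance in the counting of AI-10-49 fragments is left out of both numbers. The absence of a listed region therefore sets a ceiling for each member. With the background of the DMSO list and at the scaled depth, at most a median of 0.351 fragments per M reads (0.270 to 0.460) could have stood at the summit in AI-10-49 without a call, against the median of 0.785 in DMSO. As a ratio of AI-10-49 to DMSO, the median ceiling was 0.482 (0.371 to 0.579). For 1167 members (55.8%) the ceiling was at most 0.5, and the tightest was 0.131. This share was counted for members only and not over all regions in the width range. The ceiling follows from DMSO fragments, DMSO background and the AI-10-49 threshold, and uses no AI-10-49 fragments of the member. For the weakest members it approached or reached the DMSO level, up to 1.01, so at those the lists do not show a difference in acetylation. The ceiling is a limit and not a level, and the local background in AI-10-49 was taken from DMSO. It also takes a call to depend on the −log10 p at the summit alone. Any demand of the peak caller on the length of the enriched stretch is left out, and could leave more fragments uncalled.

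Isolation from AI-10-49 regions was set by the rule, and many members still had other DMSO regions nearby, although fewer than other regions did. The nearest AI-10-49 H3K27ac region was a median of 10.5 kb away (3.75 to 30.0), with 672 members (32.1%) within 5 kb of one and 176 (8.42%) more than 100 kb away. Another DMSO region lay within 1 kb of 799 members (38.2%) and within 10 kb of 1536 (73.5%). The corresponding shares of the other DMSO regions were 60.9% and 83.6%. The median distance to the nearest DMSO region was 2.45 kb for members and 0.354 kb for the others. A DMSO region of 5 kb or more lay within 50 kb of 12.7% of members (11.3 to 14.2) and of 17.4% of the others (17.0 to 17.8).

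The widest member spanned 3684 bp in 5q23.2 (chr5:126921589-126925272). At most 13 fragments, or 0.351 per M reads, could have stood uncalled at its summit in AI-10-49, against 63 fragments, or 1.77 per M reads (1.36 to 2.26), in DMSO, a ratio of 0.199. The nearest AI-10-49 region was 2.26 kb away. The next was a 2777 bp region in 14q32.33 (chr14:107176927-107179703), the band of the immunoglobulin heavy chain locus, with a ceiling of 13 fragments in AI-10-49 and 52 fragments in DMSO. Here and below, a gene named beside its band is background, chosen after the regions were known, and does not place the region at that gene.

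It was followed by a 2618 bp region in 3q21.3 (chr3:128273633-128276250), the band of GATA2, which encodes a transcription factor of blood stem and progenitor cells. Its ceiling was 0.460 fragments per M reads in AI-10-49, against 2.83 (2.30 to 3.44; 101 fragments) in DMSO, and the nearest AI-10-49 region was 27.1 kb away. A 2586 bp region in 5q35.3 (chr5:180074827-180077412) had a ceiling of 14 fragments in AI-10-49 and 98 fragments in DMSO, a ratio of 0.138. The 11p15.5 region (chr11:1901424-1903852, 2429 bp) had a ceiling of 20 fragments in AI-10-49 and 119 fragments, or 3.33 per M reads (2.76 to 3.99), in DMSO, which was the highest number of summit fragments of all members. The ceilings of these 5 regions follow from the absence of a call, by which members were chosen. Their distance from the DMSO summits is thus a description and not a test.

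The other wide members spread over a range of strength. In 22q13.2 (chr22:43652445-43654860, 2416 bp) the DMSO summit had 66 H3K27ac fragments and in 8p21.2 (chr8:25242034-25244165, 2132 bp) it had 97, with ceiling ratios of 0.234 and 0.209. Those in 9q34.3 (chr9:139522019-139524294, 2276 bp), 5q13.1 (chr5:68370038-68372347, 2310 bp) and 3p21.31 (chr3:49748784-49750973, 2190 bp) had 40, 50 and 33 fragments. For these 3 the ceiling ratio was 0.314, 0.425 and 0.468. Of the 10 widest members, 2 overlapped an AI-10-49 RUNX1 site, namely those of 3q21.3 and 11p15.5.

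**Figure D2:**
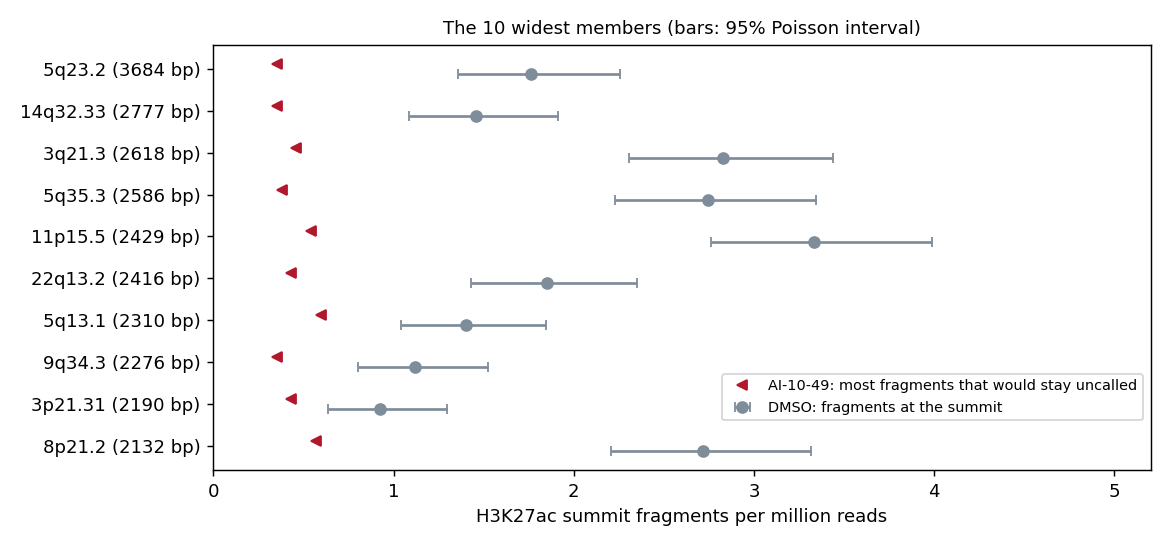
H3K27ac summit fragments per M reads in the 10 widest members, named by cytoband and width in bp. Triangles give the largest number that would have stayed uncalled in AI-10-49, points the number in DMSO with an exact 95% Poisson interval. Members were chosen by the absence of an AI-10-49 call, so the distance between triangle and point is a description and not a test. It runs from a ceiling of 0.433 against 0.925 in 3p21.31 to a ceiling of 0.541 against 3.33 in 11p15.5.

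Of the 10 members with the highest −log10 q, 4 were also among the widest. The foremost, in 13q14.11 (chr13:40845739-40846749), the band of the transcription factor gene FOXO1, was 1011 bp wide and had a ceiling of 13 fragments in AI-10-49 and 96 fragments in DMSO, the ratio of 0.131 given above. A 799 bp region in 16p13.3 (chr16:1169438-1170236) had a ceiling of 18 fragments in AI-10-49 and 114 in DMSO. A region in 2p25.3 (chr2:1994183-1995029, 847 bp) had a ceiling of 21 fragments in AI-10-49 and likewise 114 in DMSO, and was 66.2 kb from an AI-10-49 region. Members in 14q32.33 (chr14:106471185-106471873), 17q21.2 (chr17:39967599-39968779) and 7q22.1 (chr7:98198718-98199909) had 87, 88 and 77 DMSO fragments and ceiling ratios of 0.155, 0.175 and 0.175. These last 3 were narrow for their strength, at 689 to 1192 bp. Of these 10 members, 5 overlapped an AI-10-49 RUNX1 site, among them those of 16p13.3, 2p25.3 and 7q22.1.

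The members most remote from AI-10-49 acetylation held 17 to 30 summit fragments, against the median of 28 over all members. A 539 bp region in 5p14.1 (chr5:28822411-28822949) was 2608 kb from an AI-10-49 region and held 19 fragments. Neighbouring members of 797 and 670 bp in 2p16.3 (chr2:51330838-51331634 and chr2:51330047-51330716) lay 2595 and 2594 kb away, with 19 and 30 fragments. In Xq21.33 (chrX:93998718-93999281) the distance was 1680 kb with 27 fragments, and in 1p21.1 (chr1:105643878-105644815) it was 1575 kb with 17 fragments. Ceiling ratios of these 5 ran from 0.357 in Xq21.33 to 0.711 at the first of the 2p16.3 regions. Each had another DMSO region within 0.220 kb.

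Members were spread over all 24 chromosomes, at 0.675 per Mb. As a share of DMSO regions in the width range, they made up between 3.65% (chromosome 19, 66 of 1809) and 7.86% (chromosome 9, 92 of 1171). Intervals lay below the genome-wide 6.02% on chromosomes 11 (4.78%, 3.86 to 5.84), 12 (4.40%, 3.50 to 5.45) and 19 (2.83 to 4.62), and above it on chromosomes 4 (7.66%, 6.29 to 9.23) and 9 (6.38 to 9.55). The remaining 19 chromosomes had intervals that held 6.02%. These shares were not matched for width or −log10 q, with which the share of members fell. The intervals also take regions as independent, although members clustered. Per Mb of sequence the order was another one, since chromosomes 17 and 19 led with 1.13 and 1.12 members per Mb.

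**Figure D3:**
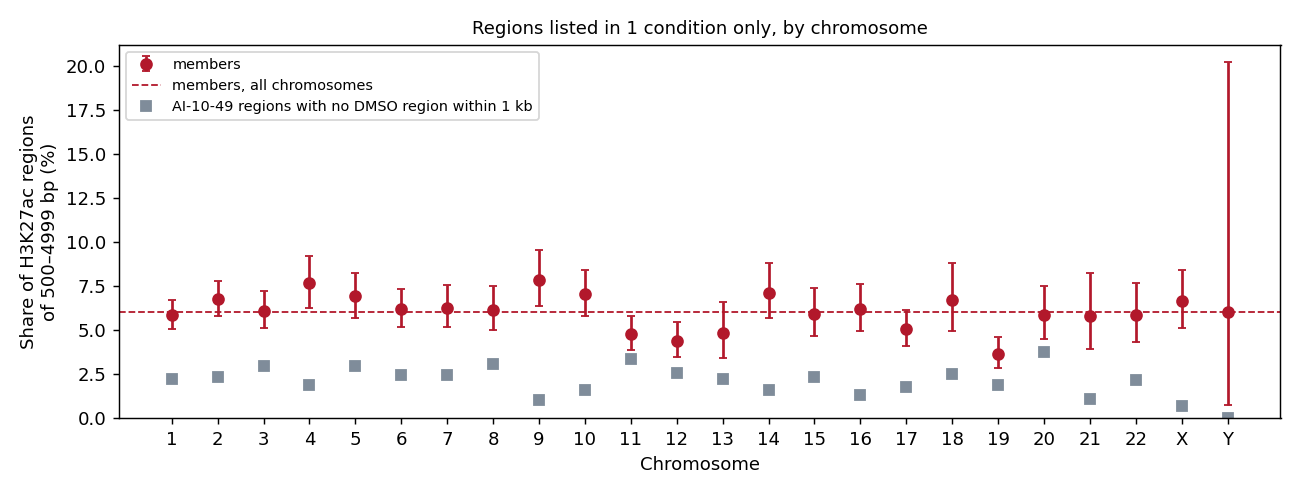
Members as a share, in percent, of the DMSO H3K27ac regions in the width range (500 bp to under 5000 bp) on each chromosome (circles with exact 95% intervals; dashed line: all chromosomes, 6.02%). Squares give, for the AI-10-49 list, the share of regions of that width with no DMSO region within 1 kb. Members range from 3.65% on chromosome 19 to 7.86% on chromosome 9.

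The reverse set was smaller. In the AI-10-49 list 767 of 33387 regions in the width range (2.30%) had no DMSO region within 1 kb, which gives 2.73 members for each of them. Their summits held a median of 25 fragments (21 to 29), or 0.676 per M reads, and their median width was 616 bp. Chromosome 9, with the highest share of members, had 1.02% of its AI-10-49 regions in the reverse set, and chromosome 11 had 3.37%. On each of the 24 chromosomes the share of members was above the share of the reverse set, but all come from the same pair of libraries. The AI-10-49 list was called at the lower scaled depth, 27.6 M reads against 34.0 M for DMSO. How far this set the ratio was not tested.

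By cytoband, 610 of the 790 bands with a DMSO region in the width range held at least 1 member. In the 269 bands with at least 50 such regions the median share was 5.43% (3.51 to 7.41). Most members were in 4p16.3 (15 of 128 regions), 16p13.3 (14 of 251), 1p31.1 (14 of 70), 14q32.33 (13 of 81) and 20p11.23 (13 of 66). Of these, 16p13.3 had a share of 5.58%, close to the genome-wide value, so its number went with its many regions. The highest shares were in 1p31.1 (20%, 11.4 to 31.3), 20p11.23 (19.7%, 10.9 to 31.3), 14q32.33 (16.0%, 8.83 to 25.9), Xp11.4 (14.3%, 8 of 56) and 15q25.3 (13.5%, 7 of 52).

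Bands without any member were also large. Among the bands with at least 50 regions, 12 had none, led by 6p21.33 (0 of 83, which allows up to 4.35%), the band of HLA class I genes and TNF, and 20q13.13 (0 of 79), the band of the myeloid transcription factor gene CEBPB. The others named by the same rule were 19q13.41 (0 of 78), 12q23.3 (0 of 77) and 15q25.1 (0 of 68). The bands were ranked by these shares, and with 269 of them some must lie far from the middle.

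Members and other regions were alike in their share of gene-rich bands, and members had a slightly higher share in the darkest, gene-poor bands. Bands that stay pale with Giemsa, which are rich in genes, held 60.7% of members (58.6 to 62.8) and 61.2% of the other DMSO regions (60.6 to 61.7). The darkest bands held 7.84% (6.73 to 9.08) and 6.07% (5.81 to 6.33). These intervals take regions as independent, although members clustered. Of the 164 members in the darkest bands, 14 lay in 1p31.1 alone. Within 5 Mb of a chromosome end lay 12.6% of members (11.2 to 14.1) and 11.7% of the others (11.4 to 12.1).

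Members lay near each other more often than the other regions lay near members. The nearest other DMSO region in the width range was itself a member for 447 members (21.4%, 19.6 to 23.2) and for 3.96% of the other regions (3.75 to 4.18), against 5.01% over all regions. Part of this follows from the rule, because a region with no AI-10-49 region within 1 kb leaves little room for a neighbour that has one. With neighbours over 2 and up to 10 kb apart the shares were 16.8% (14.1 to 19.9) and 5.52% (5.03 to 6.05), and over 10 and up to 50 kb apart they were 13.8% (11.3 to 16.6) and 6.22% (5.69 to 6.79). Beyond 50 kb they were 9.90% (6.83 to 13.8) and 7.71% (6.75 to 8.76), with overlapping intervals. Weak regions were more often members than strong ones, and a further count was limited to weak pairs, within which strength could still vary. Among pairs over 2 kb apart in which both had a −log10 q under 20, the shares were 29.7% (25.6 to 34.0) for members and 13.7% (12.1 to 15.5) for the others.

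**Figure D4:**
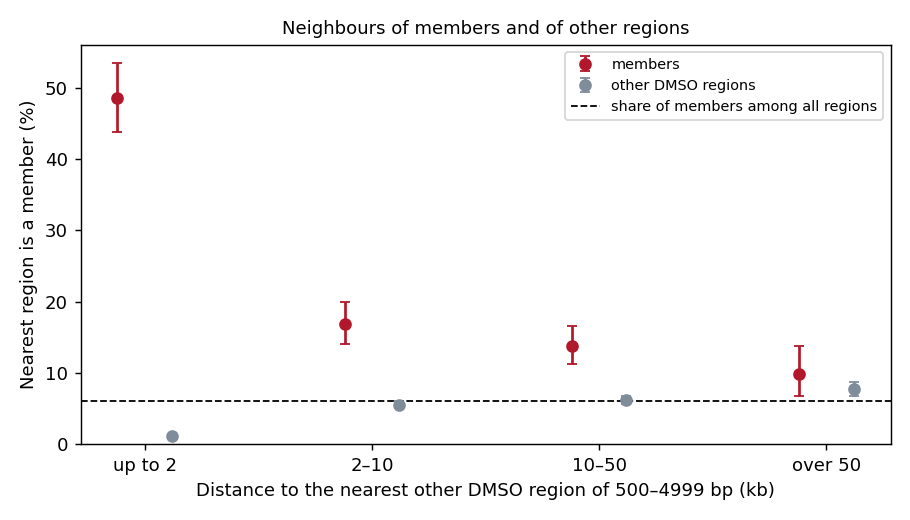
Share of regions, in percent, whose nearest other DMSO H3K27ac region in the width range (500 bp to under 5000 bp) is a member, by the distance to that neighbour in kb, for members and for the other DMSO regions. Points are shares with exact 95% intervals, and the dashed line is the share of members among all regions (6.02%). The gap is 16.8% against 5.52% at 2 to 10 kb and 9.90% against 7.71% beyond 50 kb.

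Most members nevertheless stood alone. Counted along the chromosome among DMSO regions in the width range, they formed 1757 runs of consecutive members, of which 1496 held a single member. Runs of 2 numbered 207, runs of 3 numbered 41 and runs of 4 numbered 11, and there was 1 run of 5 and 1 of 9. In all 595 members (28.5%) were in a run of at least 2. The median distance to the nearest other member was 170 kb (29.1 to 581), and 842 members (40.3%) had another within 100 kb. Of 2340 windows of 1 Mb with a DMSO region of that width, 1143 held a member, 7 held 7 members and 2 held 10. The 2 densest lay in 1p31.1, where 10 of 16 regions were members, and at the end of the short arm of chromosome 4 (4p16.3), where 10 of 39 were.

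The run of 9 lay in 1p31.1 and spanned 507 kb (chr1:76566713-77073927). It fell in a stretch of 1126 kb (chr1:76556975-77683012) without an AI-10-49 H3K27ac region, in which the DMSO list had 21 regions of any width covering 12.9 kb. This was the largest number of DMSO regions in any stretch between consecutive AI-10-49 regions. The 9 members held 22 to 54 summit fragments in DMSO. The strongest, chr1:76733857-76735673, had a ceiling of 12 fragments in AI-10-49, against 54, or 1.51 per M reads, in DMSO, a ratio of 0.214. Next came chr1:76619997-76620660 with 50 fragments and a ratio of 0.347, and the weakest was chr1:77073003-77073927 with 22 fragments and a ratio of 0.570. RUNX1 was still listed in the stretch in both conditions, at one place by the second member, chr1:76571328-76572395. That site overlapped the member in AI-10-49 and lay 0.106 kb from it in DMSO. The site was chr1:76571059-76571358 in AI-10-49, with 39 fragments or 1.24 per M reads (0.880 to 1.69), and chr1:76571072-76571221 in DMSO, with 25 fragments or 0.740 (0.479 to 1.09).

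The run of 5 lay in 14q32.33 (chr14:106576707-106934573, 358 kb), in a stretch of 362 kb with 10 DMSO regions of any width and none in AI-10-49. Its members at the left end held 66 and 47 fragments with ceiling ratios of 0.263 and 0.246, and the 3 at the right end held 19, 20 and 20. No RUNX1 site of either list lay in this stretch. Runs of 4 that spanned least were in 5p15.31 (12.8 kb, 18 to 35 fragments), 14q32.2 (24.8 kb, 35 to 62 fragments), the band of the imprinted genes DLK1 and MEG3, and 11q12.1 (30.0 kb, 21 to 27 fragments). Stretches with at least 5 DMSO regions of any width and no AI-10-49 region numbered 278, and the reverse, with at least 5 AI-10-49 regions and no DMSO region, 126. At 10 or more the numbers were 5 and 3.

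RUNX1 lists were not used to choose the members. An AI-10-49 RUNX1 site overlapped 115 members (5.50%, 4.56 to 6.56) and 7464 of the other DMSO regions (22.8%, 22.4 to 23.3), against 21.8% over all DMSO regions in the width range. The median distance to the nearest AI-10-49 RUNX1 site was 48.2 kb for members (12.7 to 139) and 18.2 kb for the others (0.984 to 71.3). Such a site lay within 10 kb of 21.4% of members (19.7 to 23.2) and of 41.3% of the others (40.7 to 41.8). It was more than 100 kb away from 32.7% of members (30.7 to 34.7) and from 18.9% of the others (18.5 to 19.3).

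Much of the gap in overlap went with the −log10 q of the region and a part of it with its width. The gap in distance stayed within each class of both. At a −log10 q of 5 to 10, 2.66% of members (1.66 to 4.04) and 3.10% of the others (2.57 to 3.69) overlapped an AI-10-49 RUNX1 site. At 10 to 20 the shares were 5.83% (4.23 to 7.79) and 7.77% (7.09 to 8.5), and at 20 to 40 they were 12.5% (9.04 to 16.7) and 16.2% (15.3 to 17.1), so that members were lower in each of these classes with intervals that met. At 40 or more they were 21.6% (11.3 to 35.3; 11 of 51 members) and 36.4% (35.7 to 37.1). Median distances in the same 4 classes were 50.1, 48.6, 47.1 and 66.0 kb for members. For the others they were 21.0, 23.8, 24.1 and 12.2 kb. By width, members under 700 bp overlapped a site in 4.92% of cases (3.73 to 6.36) and the others in 9.76% (9.05 to 10.5). In wider classes the gap in percentage points was larger, with 4.29% of members (2.84 to 6.17) and 13.0% of the others (12.2 to 13.9) from 700 to under 1000 bp. From 1000 to under 1500 bp it was 8.52% (5.48 to 12.5) and 17.8% (16.9 to 18.7), and from 1500 bp 13.5% (6.68 to 23.5) and 36.9% (36.0 to 37.7). Under a −log10 q of 5 the shares were 0.913% of members (0.111 to 3.26; 2 of 219) and 2.08% of the others (1.23 to 3.26). Members of matched width thus stayed lower. By −log10 q members were also lower in every class, with intervals that met up to 40.

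**Figure D5:**
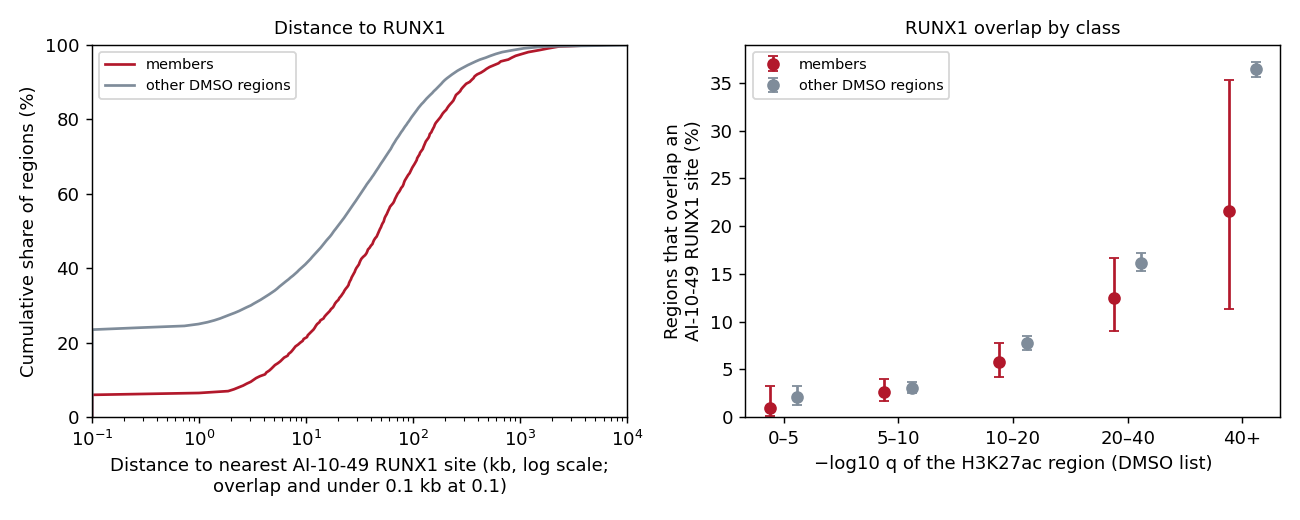
Left: cumulative share of regions, in percent, by distance in kb (log scale) to the nearest AI-10-49 RUNX1 site, for members and for the other DMSO H3K27ac regions in the width range (500 bp to under 5000 bp). Right: share of regions that overlap an AI-10-49 RUNX1 site by −log10 q of the H3K27ac region, with exact 95% intervals. Members reach 50% at 48.2 kb and the others at 18.2 kb, while the overlap shares differ by fewer percentage points within a class, as with 2.66% against 3.10% at 5 to 10. Members are lower in every class.

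DMSO RUNX1 sites overlapped 34 members (1.63%, 1.13 to 2.26) and 1128 of the others (3.45%, 3.26 to 3.66), against 3.34% over all. Within each class of −log10 q the order was reversed, with members higher and intervals that met. These classes held 2 to 11 members with a DMSO site, too few to set an order. At a −log10 q of 5 to 10, 6 of 788 members (0.761%, 0.280 to 1.65) and 0.284% of the others (0.142 to 0.507) had a DMSO site, and at 20 to 40, 11 of 312 members (3.53%, 1.77 to 6.22) and 2.82% of the others (2.42 to 3.27). Under 700 bp of width members were lower, with 1.07% (0.556 to 1.87) against 1.49% of the others (1.21 to 1.82). From 1500 bp the shares were 8.11% of members (3.03 to 16.8) and 5.41% of the others (5.02 to 5.81). Over all widths there were 3.38 members with an AI-10-49 site for each member with a DMSO site, and 6.62 among the other regions. These ratios depend on the lengths of the RUNX1 lists, 10319 sites for AI-10-49 and 1701 for DMSO. With the AI-10-49 list limited to its strongest sites, as many as DMSO had, 0.717% of members (0.402 to 1.18) overlapped an AI-10-49 site, which is below the 1.63% with a DMSO site. The median distance was then 433 kb to an AI-10-49 site and 417 kb to a DMSO site. The other regions were not counted with this shorter list, so whether these values are particular to members is not known. Of the 34 members with a DMSO RUNX1 site, 26 (76.5%, 58.8 to 89.3) also overlapped an AI-10-49 site, against 94.3% (92.8 to 95.6) of the 1128 others. In regions with a −log10 q under 20 the shares were 68.4% (13 of 19, 43.4 to 87.4) and 91.8% (83.0 to 96.9), with intervals that met.

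The 8 members with a DMSO RUNX1 site and no overlapping AI-10-49 site were without either mark in the AI-10-49 lists. The clearest was chr10:1295562-1296594 in 10p15.3, where the DMSO RUNX1 site had 64 summit fragments, or 1.89 per M reads, and where no AI-10-49 RUNX1 site lay within 171 kb. In 2p24.3 (chr2:16689183-16689709) the RUNX1 site had 37 fragments and the H3K27ac summit 82. The other 6 lay in 10p15.1, 22q11.21, 6q14.2, 4q28.1, 1q42.13 and 17q25.3, with 16 to 29 RUNX1 fragments and AI-10-49 sites 35.8 to 237 kb away. These 8 were singled out after their values were seen.

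AI-10-49 RUNX1 sites on members were about as strong as those on other regions. The median of their summit fragments per M reads was 1.06 (0.761 to 1.44) over the 112 sites that touched a member and 1.05 (0.793 to 1.55) over the 7450 sites on the others. Of the 112, 30 (26.8%, 18.9 to 36.0) overlapped a DMSO site, and of the 7450, 1046 did so (13.3% to 14.8%). At those 30 the median ratio of RUNX1 fragments per M reads, AI-10-49 over DMSO, was 1.68 (1.38 to 2.13), and 29 were higher in AI-10-49. At the 1046 on the other regions the median ratio was 2.14 (1.56 to 3.0), and 983 were higher in AI-10-49 (94.0%, 92.4 to 95.3). The rise was thus not particular to members, whose share was 96.7% (82.8 to 99.9). Fragments were 1.13 times as long in the AI-10-49 RUNX1 library as in that of DMSO, which raises such ratios. RUNX1 summits lay at a median of 245 bp from the H3K27ac summit (186 to 322), and 66 of the 112 were inside the member. Overlap with a member bounds this distance, and both values are given for members only.

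The members with the strongest RUNX1 sites ranged widely in their DMSO acetylation, from 16 to 114 H3K27ac summit fragments. The strongest AI-10-49 site by −log10 q was on chr1:246984649-246985167 in 1q44, where RUNX1 had 100 fragments or 3.17 per M reads (2.58 to 3.86) in AI-10-49 and 41 or 1.21 (0.871 to 1.65) in DMSO. The H3K27ac summit of that member held 16 fragments in DMSO, and its ceiling ratio was 0.724. In 6q23.2 (chr6:134304894-134305479), the band of the kinase gene SGK1, RUNX1 had 123 fragments or 3.90 per M reads (3.24 to 4.66) in AI-10-49 and 37 or 1.10 (0.771 to 1.51) in DMSO, beside 25 H3K27ac fragments in DMSO. In 7p22.3 (chr7:2517590-2518164) RUNX1 had 2.25 fragments per M reads in AI-10-49 and 1.36 in DMSO, beside 46 H3K27ac fragments in DMSO. In both libraries RUNX1 was listed at these 3 members, with more fragments in AI-10-49. These members and those below were chosen by the −log10 q of their AI-10-49 site, which favours higher values in AI-10-49. The order is thus a description, and the values were not corrected for the longer AI-10-49 fragments.

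The other 7 members of this kind held 37 to 114 H3K27ac fragments in DMSO. In 3q29 (chr3:194023535-194025254, 1720 bp), the band of the Notch target gene HES1, RUNX1 had 3.24 fragments per M reads in AI-10-49 and 1.66 in DMSO, and the H3K27ac summit had a ceiling of 14 fragments in AI-10-49 and 61 fragments in DMSO (ratio 0.221). In 2p25.3 there were 2 such members 4.93 kb apart. At chr2:1994183-1995029 RUNX1 had 77 fragments or 2.44 per M reads in AI-10-49 and no site in DMSO, and at chr2:1999964-2000573 it had 97 or 3.08 in AI-10-49 and 41 or 1.21 in DMSO. The H3K27ac summits there held 114 and 72 fragments in DMSO, with ceiling ratios of 0.178 and 0.335. In 9q34.13 (chr9:135472275-135473673) and 1q25.3 (chr1:182598458-182599872) RUNX1 had 1.84 and 2.38 per M reads in AI-10-49, and in DMSO it had no site in 9q34.13 and 0.977 in 1q25.3. The H3K27ac summits there held 51 and 49 fragments in DMSO, with ceiling ratios of 0.189 and 0.236. The last of the 10, in 1p35.2, was 1 RUNX1 site of 69 fragments (2.19 per M reads, AI-10-49 only) that touched the members chr1:31353681-31354202 and chr1:31354441-31354958, 0.238 kb apart, with 46 and 37 H3K27ac fragments in DMSO.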

How the data were processed

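Chromatin of ME-1 cells was precipitated for H3K27ac or RUNX1. Of 6 libraries, the 4 with a peak list were used, and the 2 inputs were not analysed here directly. MACS2 2.1.0, Bowtie2 2.1.0, Picard 1.96, SAMtools 1.3, CASAVA 1.4 and hg19 are named, without roles, per the submitters' processing notes. The authors' fold, a deposited ratio, sets each summit against its local background, and the deposited −log10 p and −log10 q are theirs too. The deposited score was not used. Each list ends near a q of 0.05.

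Summit fragments were recovered from the authors' fold and −log10 p. MACS2 scales the larger library to the smaller and tests whole fragments against a Poisson background, so the scaling factor was sought at which fragments came out whole (tolerance 0.003 in −log10 p; 100% of the peaks of each list). Read totals follow from the lowest background, the shortest peak as fragment length (210 and 192 bp for H3K27ac AI-10-49 and DMSO) and an assumed genome size of 2700000000 bp. The ceiling is the largest AI-10-49 fragment number that stays under that list's lowest −log10 p. Fragment ratios were not corrected for the longer AI-10-49 fragments (1.09 times for H3K27ac). Recovery and gaps were tested on simulated data.

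A gap of exactly 1 kb counts as within 1 kb, and overlap means at least 1 bp. Cytobands came with circlize 0.4.16, and their 24 chromosome ends matched the hg19 lengths that GenomeInfoDb 1.38.1 holds. The gene and promoter tables at hand were of GRCh38.p14, so regions were given no gene, sequence or exon and intron status. GC content and the RUNX motif, planned for an hg19 sequence, were not analysed here. Named regions were the 10 widest, the 10 of highest −log10 q, the 5 farthest from AI-10-49 regions, the 10 with the strongest RUNX1 site, the 5 longest runs, extreme bands and those at the limits. Members and lists were chosen with earlier results of these data known. Software was scipy 1.17.1, pandas 2.3.3, numpy 2.4.6 and matplotlib 3.10.9 under Python 3.11.15.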

Additional observations from a re-analysis of the deposited data

How the results depend on the processing

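Among 45 values under other settings, 22 moved, that is by 1.5 times or more for a count, ratio or distance or past its interval for a share. Except where a shorter list or wider window sets the value by construction, the cause was not tested. The number of members (2091) became 344 with a width of at least 1000 bp, 4061 with AI-10-49 regions of −log10 q of at least 5 and 3686 with both lists cut there. The ratio to the reverse set (2.73) was 4.30 with a 5 kb margin, 6.04 from 1000 bp, 7.47 with AI-10-49 regions of −log10 q of at least 5 and 1.16 with DMSO regions so limited, the last 2 by thinning 1 list, and it stayed above 1. The RUNX1 overlap (5.50%) was 6.98% with a 5 kb margin, 9.59% from 1000 bp, 3.06% with the RUNX1 summit inside, 21.4% within 10 kb and 0.717% with a RUNX1 list as short as that of DMSO, where the median distance was 433 kb. In the settings that changed the members, the other regions had 22.4% to 30.0%. The share with a member as nearest region (21.4%) was 18.4% without a margin, 23.7% with 5 kb and 8.43% from 1000 bp. From 1000 bp the other regions had 1.35%. It was 27.8% with AI-10-49 regions of −log10 q of at least 5 and 27.4% with both so limited. For a nearest region of any width with no AI-10-49 region within 1 kb, which need not be a member, it was 51.4%. The other regions had 8.36% there, and 16.5% of all DMSO regions lacked an AI-10-49 region within 1 kb. The share able to pass the AI-10-49 threshold (100%) was 99.8% at the smaller of ChIP and input reads, 97.1% with a background 1.5 times as high and 91.9% against AI-10-49 regions of −log10 q of at least 5. GC content and the RUNX motif were not run. No paired analysis was possible because there was 1 library of each kind.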
